A study of Mus musculus with 2 samples.

Results

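A set of 7 transcription factor genes known from blood stem cells, *Hlf*, *Mecom*, *Hoxa9*, *Meis1*, *Mycn*, *Mllt3* and *Mef2c*, was followed in single cells grown from early mouse embryos and yolk sacs. They were chosen by name, are 7 of the 11691 genes of the deposited table, and all 7 were found in it. Intraembryonic tissues and yolk sacs of C57/BL6 mice at E8.5 (5 to 7 somite pairs) were cultured apart as embryo explants (Em-Ex) and yolk sac explants (YS-Ex). Both kinds stood at the air-liquid interface for 9 to 10 days with SCF, IL-3 and FLT3 ligand, each at 100 ng/ml, in medium with 20% serum. The CD31+CD45+c-Kit+CD41- cells of each were then sorted and captured as 1 droplet library per explant type, from pooled concepti. In this assay each captured transcript carries a unique molecular identifier (UMI), and levels are given here as UMIs per 1000000 UMIs of the pooled cells (CPM).

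Hlf is a leucine zipper factor of the PAR family, and Mecom (also called Evi1) is a zinc finger factor. Both are known as regulators that mark the most immature blood stem cells. Hoxa9 and Meis1 are homeodomain proteins that bind DNA together and sustain stem and progenitor cells. Mycn belongs to the MYC family of growth regulators. Mllt3 (AF9) reads acetylated histones and brings elongation factors and the methyltransferase Dot1l to genes, and Mef2c is a MADS-box factor of myeloid and lymphoid progenitors that is also a muscle regulator. Mast cells, the granule-bearing cells that store proteases such as Cpa3 (carboxypeptidase A3), develop from such progenitors in the presence of SCF and IL-3.

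Cells with fewer than 20 *Cpa3* UMIs per 10000 were called Cpa3-low and all others Cpa3-high. Em-Ex held 641 Cpa3-low cells among 3071 (20.9%) and YS-Ex held 69 among 2087 (3.31%). All 3 genes of the positive sort markers were detected in each class, with *Kit* from 75.3 CPM (Em-Ex Cpa3-low) to 987 CPM (YS-Ex Cpa3-high), *Ptprc* (CD45) from 44.5 to 123 CPM and *Pecam1* (CD31) from 28.1 to 54.9 CPM, while *Itga2b* (CD41, sorted against) lay between 2.12 and 21.3 CPM. The limit cuts a range and not a gap, with 77 Em-Ex cells between 10 and 20 and 230 between 20 and 40 *Cpa3* UMIs per 10000, against 19 and 72 YS-Ex cells. The label of mast cells held for the Cpa3-high cells of Em-Ex, since every mast cell marker of the list other than *Cpa3*, which defines the classes, was at least 2-fold higher there than in Cpa3-low cells, among them *Cma1*, *Tpsb2* and *Hdc*. In YS-Ex, 10 of the 13 markers were, *Cpa3* included, while the proteases *Mcpt1* and *Mcpt2* were higher in the Cpa3-low cells. In Em-Ex the 3 basophil markers at 10 CPM were also at least 2-fold higher in Cpa3-high cells. *Cd200r3* stood at 417 against 30.8 CPM, *Mcpt8* at 127 against 11.6 CPM and *Prss34* at 14.5 against 2.07 CPM. The label thus does not set mast cells apart from basophils. Markers of other cells were high among the Cpa3-low cells of Em-Ex, with 6 of 7 neutrophil progenitor, 6 of 6 erythroid and 4 of 4 stromal markers at least 2-fold higher than in Cpa3-high cells, and the class is therefore split by cluster below. The Cpa3-low cells were deeper in Em-Ex (median 18290 UMIs) than the Cpa3-high cells (median 11342.5 UMIs), whereas both classes of YS-Ex had medians of 11142 and 11750.5 UMIs. With 1 library per explant type no test was possible, and the 95% intervals in brackets cover counting error only.

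The table limits what can be said of rare genes. In each library a gene stood above 0 only with UMIs in at least 30 barcodes, so a gene listed at 0 can have had UMIs in up to 29 of them. *Hlf*, *Mecom* and *Hoxa9* were listed at 0 in all 3037 YS-Ex barcodes, and *Mycn* had UMIs in 30 of them, at the limit. With 69 Cpa3-low cells in YS-Ex after filtering, a gene seen in fewer than 30 of them and nowhere else would be listed at 0, so these 3 genes were not compared between the explants. Between the libraries, 35 barcodes occurred in both, and these included 9 of the 69 Cpa3-low cells of YS-Ex.

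**Figure D1:**
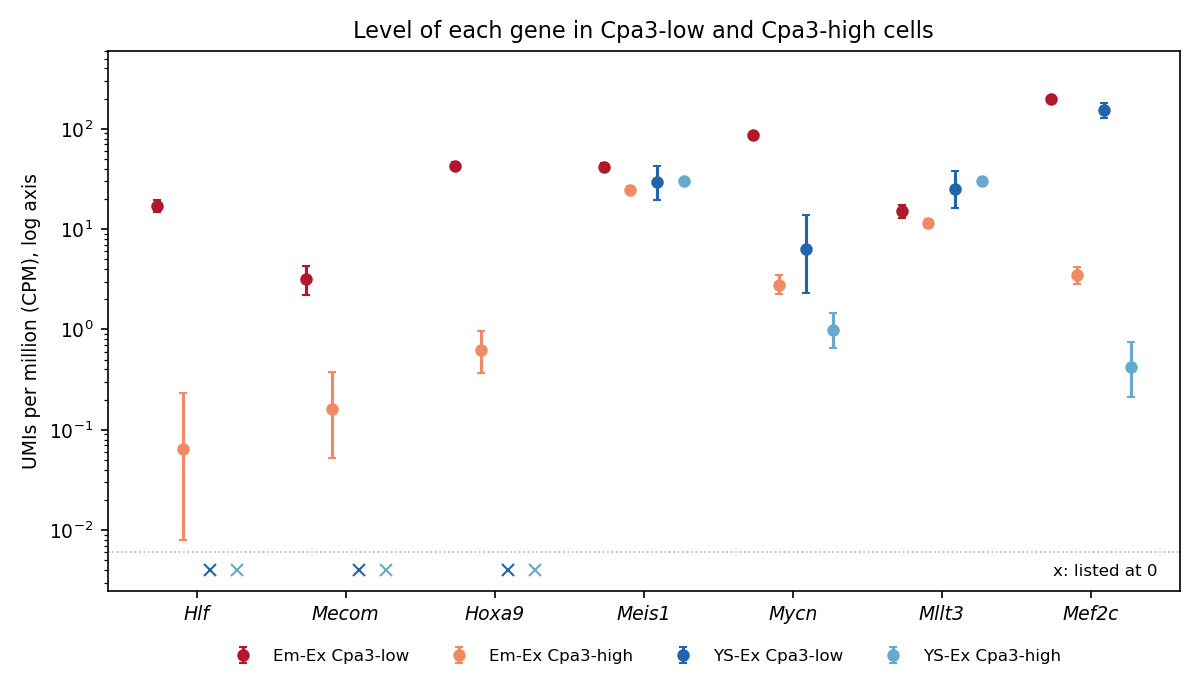
Level of each gene in CPM (log axis) in the 4 classes of cells, with points for the pooled level of 1 library each and bars for exact Poisson 95% intervals. Crosses mark genes listed at 0. *Hlf*, *Mecom*, *Hoxa9*, *Mycn* and *Mef2c* sit far higher in Em-Ex Cpa3-low cells than in Em-Ex Cpa3-high cells, while *Meis1* (42.1 and 24.8 CPM) and *Mllt3* (15.2 and 11.5 CPM) lie close together.

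The stretches before the start sites of 4 of the genes are shown because 3 of them (*Hlf*, *Hoxa9* and *Mycn*) were largely confined to Cpa3-low cells of Em-Ex and *Meis1* was not. These are the 4 members with a single start in the RefSeq table of the mouse genome (GRCm38.p6), in which all 7 were found. Each is given 5′ to 3′ on the strand of the gene, without bases that GENCODE M21 places in an exon, and capitals mark matches to the motifs named after them. The *Hlf* stretch is chr11:90390918-90391167 (minus strand), outside any gene. The *Hoxa9* stretch is chr6:52227371-52227620 (minus strand), in an intron of longer *Hoxa9* transcripts. The *Mycn* stretch is chr12:12941915-12942086 (minus strand) and the *Meis1* stretch chr11:19018986-19019219 (minus strand), both outside any gene.
Hlf: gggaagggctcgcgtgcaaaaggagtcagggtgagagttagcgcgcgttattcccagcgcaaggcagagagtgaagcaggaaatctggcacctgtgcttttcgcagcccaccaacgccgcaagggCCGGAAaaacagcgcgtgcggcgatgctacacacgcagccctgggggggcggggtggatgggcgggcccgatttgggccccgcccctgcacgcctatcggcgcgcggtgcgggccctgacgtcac
Hoxa9: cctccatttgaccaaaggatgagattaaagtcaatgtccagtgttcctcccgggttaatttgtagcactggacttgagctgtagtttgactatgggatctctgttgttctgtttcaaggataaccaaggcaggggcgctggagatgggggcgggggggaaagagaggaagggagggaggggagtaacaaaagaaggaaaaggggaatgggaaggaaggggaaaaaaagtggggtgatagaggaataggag
Mycn: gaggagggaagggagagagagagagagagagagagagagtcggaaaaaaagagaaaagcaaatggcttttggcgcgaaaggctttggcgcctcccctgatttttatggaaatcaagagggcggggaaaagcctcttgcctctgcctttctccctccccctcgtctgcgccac
Meis1: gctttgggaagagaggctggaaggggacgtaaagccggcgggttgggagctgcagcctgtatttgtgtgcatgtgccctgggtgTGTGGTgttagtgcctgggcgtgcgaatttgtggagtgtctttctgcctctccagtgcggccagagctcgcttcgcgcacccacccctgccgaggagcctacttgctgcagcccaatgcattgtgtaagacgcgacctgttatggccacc

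In the 250 bases before each start, 6 motifs were searched on both strands, none of which is contained in another. TTANGTAA was taken for the PAR family, to which Hlf itself belongs. For homeodomain factors of the MEIS kind the letters were TGACAG, and for MYC proteins such as Mycn they were CACGTG. The blood factors of the GATA family were searched as AGATAA, those of the RUNX family as TGTGGT, and the large ETS family as CCGGAA. *Hlf* held the ETS motif 125 bases before its start. *Meis1* held the RUNX motif 166 bases and the ETS motif 11 bases before it, the latter in exon sequence that is not shown. *Hoxa9* and *Mycn* held none of the 6 in this window. Across all 32851 start windows the PAR motif was found in 2.06%, MEIS in 15.9%, MYC in 6.02%, GATA in 9.99%, RUNX in 14.05% and ETS in 12.0%. Of the 11 windows of the 7 genes 4 held any of the motifs, against 47.7% of all windows.

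*Hlf* was nearly confined to Cpa3-low cells of Em-Ex. The gene lies on the minus strand of chromosome 11 (GENCODE M21, chr11:90336536-90390895) and no other annotated gene overlaps it. Its 205 UMIs in Cpa3-low cells gave 17.0 CPM (14.8 to 19.5), and 2 UMIs in 2430 Cpa3-high cells gave 0.065 CPM (0.0079 to 0.24). The ratio was 261 (71.3 to 2169), with the wide interval set by those 2 UMIs. At least 1 *Hlf* UMI was found in 99 of 641 Cpa3-low cells (15.4%, 12.7 to 18.5). After each cell was thinned to 3000 UMIs the share was 4.52% (3.05 to 6.43) against 0 of 2430 Cpa3-high cells (upper bound of the interval 0.152%).

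*Mecom* was the rarest of the genes. It lies at chr3:29951296-30548008 (minus strand), where 5 annotated genes overlap it on its own strand and 2 on the other, so that a few of its UMIs could belong to them. The 38 UMIs of Cpa3-low cells came from 29 cells (3.15 CPM, 2.23 to 4.33) and the 5 UMIs of Cpa3-high cells from 5 cells (0.163 CPM, 0.0529 to 0.38). The level was 19.3 times higher in the Cpa3-low cells (7.6 to 63.0). Without 13 Cpa3-high cells of clusters 5 and 14, described below, which held 2 of the 5 UMIs, the log2 ratio was 4.998 in place of 4.27.

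*Hoxa9* (chr6:52223100-52231089, minus strand) followed the pattern of *Hlf* at a higher count. In Em-Ex Cpa3-low cells 518 UMIs gave 43.0 CPM (39.3 to 46.8), and 211 of 641 cells held at least 1 (32.9%, 29.3 to 36.7). In Cpa3-high cells 19 UMIs in 12 of 2430 cells gave 0.619 CPM (0.373 to 0.967), a ratio of 69.4 (44.0 to 116). Of those 19 UMIs 13 came from 6 cells of clusters 5 and 14, which are described below and held 13 Cpa3-high cells in all. Without those cells the log2 ratio was 7.77 in place of 6.12.

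*Mycn* (chr12:12936093-12941914, minus strand) and *Mef2c* (chr13:83504034-83667080, plus strand) were detected in more of the Cpa3-low cells of Em-Ex. *Mycn* reached 86.2 CPM (81.0 to 91.6) with UMIs in 321 of 641 cells (50.1%), against 2.80 CPM (2.24 to 3.46) and 60 of 2430 Cpa3-high cells (2.47%). *Mef2c* reached 197 CPM (189 to 205) with UMIs in 474 cells (73.9%), against 3.49 CPM (2.86 to 4.21) and 59 Cpa3-high cells (2.43%). The ratios were 30.8 (24.7 to 38.8) for *Mycn* and 56.6 (46.6 to 69.3) for *Mef2c*, so that both genes were mainly genes of the Cpa3-low class. Without the 13 Cpa3-high cells of clusters 5 and 14 the log2 ratio of *Mef2c* was 6.74 in place of 5.82, and that of *Mycn* was 5.45 in place of 4.94. At 3000 UMIs per cell *Mycn* remained in 19.2% of Cpa3-low and 0.905% of Cpa3-high cells, and *Mef2c* in 34.2% and 0.823%.

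*Meis1* (chr11:18879817-19018985, minus strand, with 3 annotated genes overlapping on its strand and 2 on the other) persisted in mast cells of both explants. In Em-Ex its 507 UMIs in Cpa3-low cells gave 42.1 CPM (38.5 to 45.9), and its 762 UMIs in Cpa3-high cells gave 24.8 CPM (23.1 to 26.7), a ratio of 1.69 (1.51 to 1.9). In YS-Ex it stood at 29.7 CPM (19.7 to 42.9) in Cpa3-low and 30.2 CPM (28.2 to 32.4) in Cpa3-high cells, a ratio of 0.98 (0.647 to 1.43). In the order of levels, Em-Ex Cpa3-low cells came first and Em-Ex Cpa3-high cells last, and the 2 classes of YS-Ex between them did not differ beyond their intervals. The interval of the YS-Ex Cpa3-low cells, which rests on 28 UMIs, reached both ends of that order.

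*Mllt3* (chr4:87769925-88033364, minus strand) also persisted, and it separated the explants more than the classes. The Em-Ex levels were 15.2 CPM (13.1 to 17.5) in Cpa3-low and 11.5 CPM (10.3 to 12.8) in Cpa3-high cells, and the YS-Ex levels were 25.4 CPM (16.3 to 37.8) and 30.4 CPM (28.3 to 32.6). Within Em-Ex the ratio of Cpa3-low to Cpa3-high cells was 1.32 (1.1 to 1.58), a direction that turned when only the Cpa3-low cells of cluster 5, described below, were taken (log2 ratio -0.38, -0.74 to -0.04). Within YS-Ex the ratio was 0.836 (0.533 to 1.25), an interval that includes no difference. In the order of levels the 2 YS-Ex classes came first and did not differ beyond their intervals. Em-Ex Cpa3-low cells followed, at 0.597 of the YS-Ex Cpa3-low cells (0.389 to 0.956), although these classes hold different clusters in each library, and Em-Ex Cpa3-high cells came last. In Cpa3-high cells the level was 2.64 times higher in YS-Ex than in Em-Ex (2.33 to 3.0), with UMIs in 28.0% of 2018 YS-Ex cells and 12.6% of 2430 Em-Ex cells at like depth. At 3000 UMIs per cell these shares were 6.39% (5.36 to 7.55) and 3.99% (3.25 to 4.85).

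Against the whole table, 17.6% of the 7406 genes at 10 CPM or more in either class were at least 2-fold higher in Cpa3-low cells of Em-Ex and 10.5% in Cpa3-high cells. Among the members 6 reached 10 CPM, of which *Hlf*, *Hoxa9*, *Mycn* and *Mef2c* were at least 2-fold higher in Cpa3-low cells and *Meis1* and *Mllt3* were not, and *Mecom* did not reach 10 CPM. Those 4 genes reached 10 CPM only in the Cpa3-low cells and so had to differ, and their number is given as a description. In YS-Ex 13.4% of 7722 genes were at least 2-fold higher in Cpa3-low and 6.22% in Cpa3-high cells. There *Mef2c* was the only 1 of the 3 members at 10 CPM to pass 2-fold, with *Meis1* and *Mllt3* inside it, and *Mef2c* too reached 10 CPM only in the Cpa3-low cells and had to differ. Between the Cpa3-high cells of the explants 1.42% of 7019 genes were at least 2-fold higher in Em-Ex and 10.4% in YS-Ex, and *Mllt3* was among the latter while *Meis1* was not.

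*Mef2c* in YS-Ex rested on few cells. Its 145 UMIs in Cpa3-low cells came from 20 of 69 cells and gave 154 CPM (130 to 181), against 11 UMIs and 0.422 CPM (0.21 to 0.754) in 2018 Cpa3-high cells. Of the 9 Cpa3-low cells whose barcode also occurred in Em-Ex, 5 held 11 of these UMIs, and without the 9 cells the level was 148 CPM (124 to 175). *Mycn* in YS-Ex had 6 UMIs in 2 Cpa3-low cells (6.35 CPM, 2.33 to 13.8) and 26 UMIs in Cpa3-high cells (0.997 CPM, 0.651 to 1.46). The *Mef2c* level of Em-Ex Cpa3-low cells was 1.28 times that of YS-Ex (1.09 to 1.53), while the *Mycn* level was 13.6 times higher (6.21 to 37.0). The class is made of different clusters in each library, since cluster 5, described below, took up 464 of 641 such cells in Em-Ex but 15 of 69 in YS-Ex. Within cluster 5 *Mef2c* was higher in the YS-Ex cells (522 against 230 CPM), and *Mycn* was higher in the Em-Ex cells (107 against 12.4 CPM). For *Mycn* the YS-Ex Cpa3-low and Em-Ex Cpa3-high cells did not differ beyond their intervals. In Cpa3-high cells *Mycn* was 2.81 times (1.79 to 4.54) and *Mef2c* 8.27 times (4.44 to 17.1) higher in Em-Ex than in YS-Ex, both at levels far under those of Cpa3-low cells of Em-Ex. In Em-Ex 51 of the 107 *Mef2c* and 26 of the 86 *Mycn* UMIs came from the 13 cells of clusters 5 and 14, and the other 2417 cells had 1.84 CPM (1.39 to 2.39) of *Mef2c* and 1.97 CPM (1.51 to 2.54) of *Mycn*. As a mean over cells the log2 ratio of *Mef2c* was 2.43 in place of 3.05.

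Along the *Cpa3* scale of Em-Ex the genes of Cpa3-low cells were not all lower from the same point on. Between the 446 cells with fewer than 2.5 and the 92 cells with 2.5 to 5 *Cpa3* UMIs per 10000, *Mycn* (94.1 and 91.1 CPM), *Mef2c* (216 and 220 CPM) and *Hlf* (18.1 and 21.3 CPM) did not differ beyond their intervals. *Hoxa9* was already lower in the second bin (36.8 CPM, 27.9 to 47.7, after 49.7 CPM, 45.2 to 54.5), with intervals that overlap, and stood at 16.9 CPM (6.18 to 36.7) in the 26 cells from 5 to 10. In those 26 cells *Mycn* was still at 89.9 CPM (61.5 to 127), while *Mef2c* was at 118 CPM (85.0 to 159).

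From 10 to 20 *Cpa3* UMIs per 10000, still below the limit, *Mycn* had 9.47 CPM (4.54 to 17.4), *Mef2c* 25.6 CPM (16.8 to 37.2) and *Hoxa9* 2.84 CPM (0.586 to 8.3). Most of the drop therefore lay below the limit of 20. *Mef2c* was lower again above it, with 11.5 CPM (8.11 to 15.7) at 20 to 40 and 1.35 CPM (0.646 to 2.48) at 160 or more. *Meis1* had 53.4 CPM (32.1 to 83.3) at 5 to 10 and 24.6 CPM (16.1 to 36.1) at 10 to 20, with intervals that overlap, and beyond 20 it lay between 22.1 and 28.6 CPM. *Mllt3* lay between 10.6 and 18.9 CPM in all 8 bins.

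**Figure D2:**
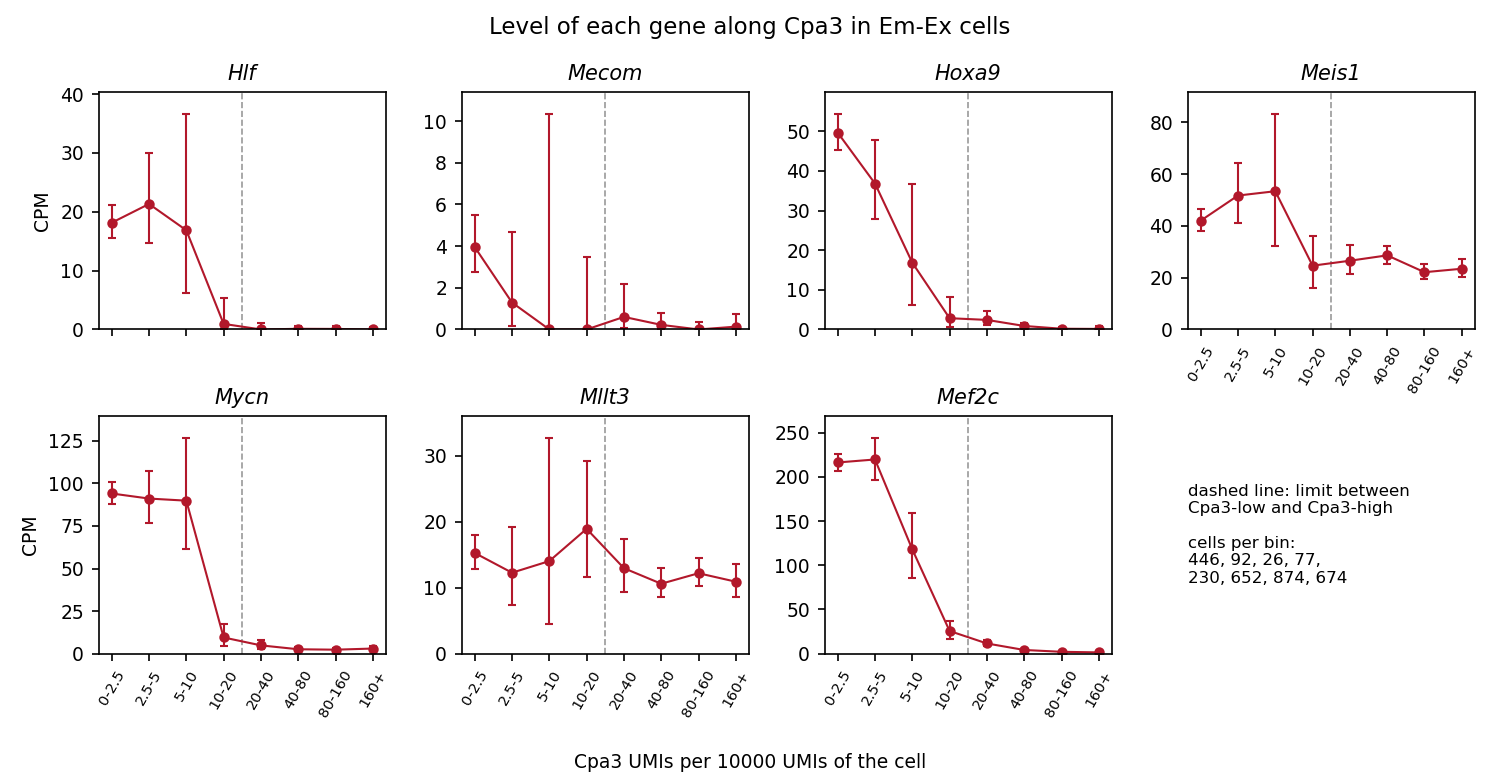
Level of each gene in CPM (each panel has its own linear axis from 0) in Em-Ex cells binned by *Cpa3* UMIs per 10000, with exact Poisson 95% intervals. *Mycn* and *Mef2c* are far lower in the bin 10 to 20 than in the bin 5 to 10, before the dashed limit of 20, and *Meis1* and *Mllt3* keep a level in every bin.

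The cells were clustered without the 7 genes and *Cpa3*, which gave 14 clusters. Cluster 5, led by *Mpo*, *Prtn3* and *Flt3*, held 465 Em-Ex and 15 YS-Ex cells, of which 479 of 480 were Cpa3-low. Cluster 11 (52 cells) was led by *S100a9*, *S100a8* and *Lyz2*, cluster 12 (27 cells) by the muscle and stromal genes *Actc1*, *Sparc* and *Dcn*, and cluster 13 (25 cells) by the globin gene *Hbb-bs* and by *Klf1*. *Mef2c* was itself among the 10 leading genes of clusters 5 and 14, and *Mycn* of cluster 14 (24 cells, 11 of them Cpa3-low). Clusters 1 to 4 and 6 to 10 had mast cell levels of *Cpa3*, and cluster 6 was led by *Mcpt8*, a marker of the basophil list. All of these mast cell clusters but cluster 9 were mostly of 1 library, and no correction between the libraries was made.

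**Figure D3:**
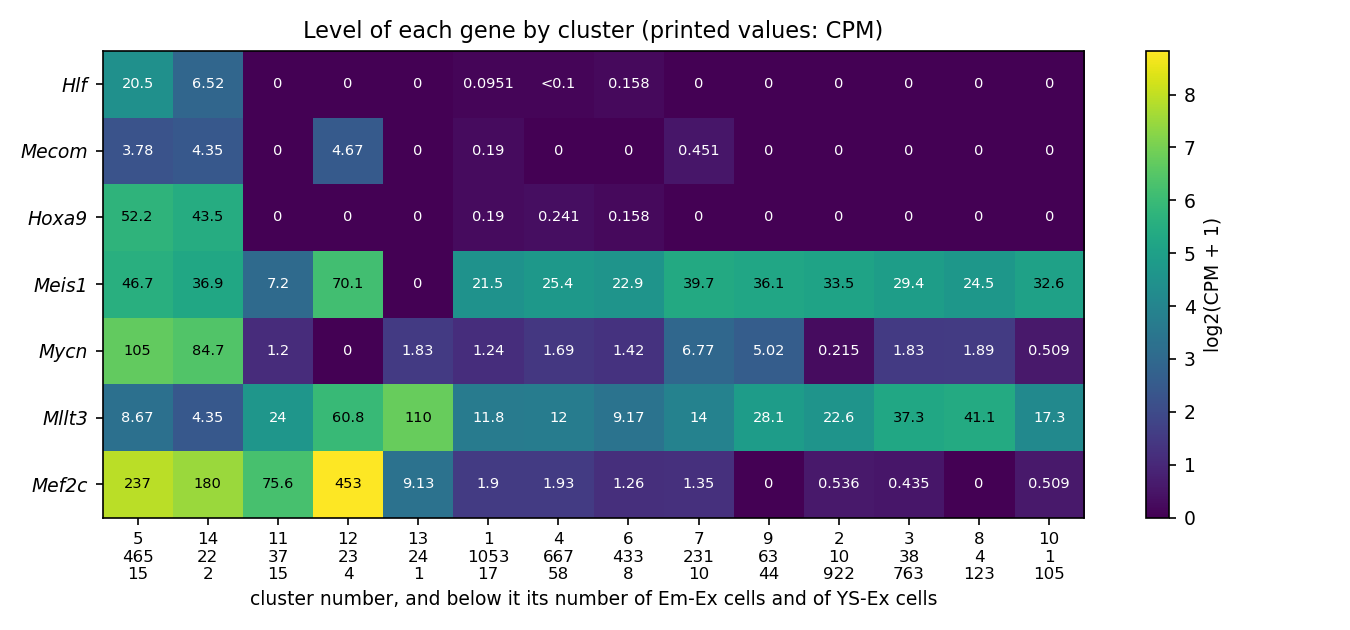
Level of each gene by cluster, in CPM as printed and as log2(CPM + 1) in color, with the number of Em-Ex and YS-Ex cells under each cluster. *Hlf*, *Hoxa9* and *Mycn* are highest in clusters 5 and 14, although *Mycn* in cluster 7 (6.77 CPM) is as bright as *Hlf* in cluster 14 (6.52 CPM). *Meis1* is near 20 to 40 CPM in all 9 mast cell clusters, and *Mllt3* is highest in cluster 13. Zeros of *Hlf*, *Mecom* and *Hoxa9* in clusters of YS-Ex cells are listed zeros.

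Cluster 5 held most UMIs of the genes restricted to Cpa3-low cells. Its 464 Cpa3-low cells of Em-Ex carried 201 of 207 *Hlf* UMIs of the library (97.1%), 511 of 537 for *Hoxa9* (95.2%), 1021 of 1125 for *Mycn* (90.8%), 2194 of 2484 for *Mef2c* (88.3%) and 37 of 43 for *Mecom* (86.0%). The *Hlf* share depends on the clustering, and the cluster with most *Hlf* UMIs held 55.6% of them at Leiden resolution 2 and 57.0% when each library was clustered alone. The same cells of cluster 5 carried 35.5% of the *Meis1* and 15.7% of the *Mllt3* UMIs. The *Cpa3* level of cluster 5 was 178 CPM, against 8278 to 18991 CPM in the mast cell clusters. The remaining 177 Cpa3-low cells of Em-Ex thus held few UMIs of *Hlf*, *Hoxa9* or *Mycn*, although their *Cpa3* was below the limit too.

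*Mef2c* and *Mllt3* were not limited to cluster 5 among the Cpa3-low cells of Em-Ex. *Mef2c* had 97 UMIs in 7 of the 23 cells of cluster 12 (532 CPM, 432 to 650) and 41 UMIs in 16 of the 34 cells of cluster 11 (76.6 CPM, 55.0 to 104). *Ptprc*, the gene of the sort marker CD45, was at 0 CPM in cluster 12. *Mllt3* reached 99.8 CPM (74.3 to 131) in the 23 Cpa3-low cells of cluster 13, whose leading genes are those of red cells, and 71.4 CPM (38.0 to 122) in cluster 12. In cluster 5 it stood at 8.82 CPM (7.03 to 10.9), under the 11.5 CPM of the Cpa3-high cells. With the Cpa3-low cells of cluster 5 alone, its log2 ratio to Cpa3-high cells turned from 0.40 (0.13 to 0.66) to -0.38 (-0.74 to -0.04). The sign of the *Mllt3* difference in Em-Ex thus rested on the small clusters. *Meis1* had 0 UMIs in the 25 cells of cluster 13, with an upper bound of 6.74 CPM, and 70.1 CPM (39.2 to 116) in cluster 12.

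The few UMIs of the restricted genes in mast cells were set against leading genes of cluster 5. In the 2417 Em-Ex Cpa3-high cells outside clusters 5 and 14, the neutrophil granule genes *Mpo* and *Prtn3* and the receptor gene *Flt3* stood at 0.738% (0.615 to 0.88), 0.758% (0.65 to 0.879) and 0.716% (0.399 to 1.19) of their level in cluster 5. *Mef2c* stood at 0.799% (0.602 to 1.04), *Hoxa9* at 0.368% (0.134 to 0.806) and *Hlf* at 0.312% (0.0375 to 1.14). *Mecom*, with 3 UMIs in these cells, stood at 2.54% (0.501 to 8.02), an interval that also overlaps that of *Mpo*. The intervals of *Mef2c*, *Hoxa9* and *Hlf* overlapped that of *Mpo* too. Whether these UMIs came from free RNA was not tested. *Mycn* stood at 1.84% (1.39 to 2.39), above the interval of *Mpo*, and *Meis1* and *Mllt3* at 52.2% (46.4 to 58.8) and 131% (103 to 168). The median depths were 11319 UMIs in these cells and 20548 UMIs in cluster 5.

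The mast cells of both libraries could be compared within clusters 3, 4 and 9, which held at least 20 cells of each, and *Mllt3* differed beyond its interval in 1 of these. The Cpa3-high cells of cluster 9 had 39.2 CPM in 39 YS-Ex cells and 13.96 CPM in 58 Em-Ex cells, a ratio of 2.81 (1.1 to 7.72). In cluster 4 the ratio was 1.34 (0.692 to 2.37) and in cluster 3 it was 1.46 (0.733 to 3.4), both intervals including no difference. In smaller groups the order varied, with 4 UMIs in 10 Em-Ex cells of cluster 2 (59.4 CPM, 16.2 to 152) against 22.4 CPM in its YS-Ex cells, and 0 UMIs in the 8 YS-Ex cells of cluster 6. Between clusters of 1 library *Mllt3* was higher in clusters 3 and 8 (37.3 and 41.1 CPM) than in the other YS-Ex clusters 2 and 10 (22.6 and 17.3 CPM), and the Em-Ex clusters 1, 4, 6 and 7 had 9.17 to 13.99 CPM. The intervals of cluster 10 (12.0 to 24.2) and cluster 7 (9.5 to 19.9) overlapped. The library and the explant type cannot be told apart here.

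YS-Ex had few cells in cluster 5. Of the 15 YS-Ex cells of cluster 5, 7 shared a barcode with Em-Ex. The other 8, with 20377 to 34107 UMIs each, all held *Mef2c* (115 UMIs, 542 CPM, 448 to 651), and 3 held *Meis1* (8 UMIs). *Mycn* was found in 1 of them (3 UMIs) and *Mllt3* in 0. *Mef2c* in these 8 cells was above the 230 CPM (221 to 240) of the Em-Ex cells of cluster 5, in a single library.

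Em-Ex Cpa3-low cells often carried several of the genes at once. *Hlf*, *Mecom*, *Hoxa9*, *Mycn* and *Mef2c* were far higher in them than in Em-Ex Cpa3-high cells. More members per cell had to follow from those levels, and the shares are given as a description. With all UMIs, 454 of 641 cells (70.8%, 67.1 to 74.3) had UMIs of 2 or more members and 57 cells (8.89%) of 5 or more, against 134 of 2430 Cpa3-high cells (5.51%, 4.64 to 6.5) with 2 or more. Thinned to 10000 UMIs, 340 of 543 Cpa3-low cells (62.6%, 58.4 to 66.7) and 59 of 1454 Cpa3-high cells (4.06%, 3.1 to 5.2) had 2 or more. In YS-Ex at that depth it was 6 of 38 Cpa3-low cells (15.8%) and 80 of 1279 Cpa3-high cells (6.25%, 4.99 to 7.72), of which *Meis1* with *Mllt3* made up 76. Within cluster 5, 323 of 435 Em-Ex cells (74.3%) had 2 or more members and 2 cells had all 7, while 17 of 109 other Cpa3-low cells (15.6%) had 2 or more.

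**Figure D4:**
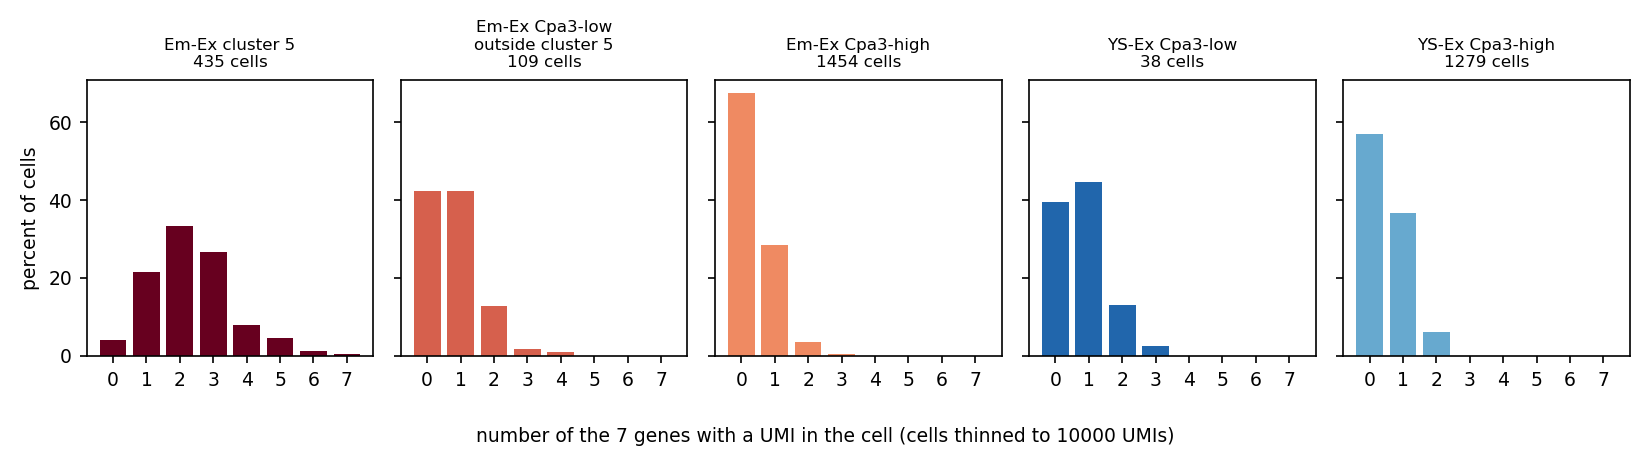
Percent of cells by the number of the 7 genes with a UMI, after thinning each cell to 10000 UMIs and leaving out shallower cells. Cells of cluster 5 center on 2 and 3 genes, whereas most cells of the other 4 groups have 0 or 1. In YS-Ex 3 of the 7 genes are listed at 0.

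Which genes met in the same cell was examined within cluster 5, with every cell thinned to 10000 UMIs. Cluster 5 is itself mixed, since cells with and without *Hlf* differed in *Mpo* and *Procr* as given below, and the part of this mix in the counts was not tested. *Hlf* and *Mecom* met more often than their separate shares multiply to. Of the 16 cells with *Mecom* 15 also had *Hlf* (93.8%, 69.8 to 99.8), although *Hlf* was found in 61 of 435 cells, and the product of the shares gave 2.24 cells. With all UMIs they met in 24 cells against 5.78 from the product, a ratio of 4.15 in place of 6.69. The highest ratio that a pair can reach is lower where its genes are found in more cells, as *Hlf* is with all UMIs. *Hlf* also met *Hoxa9* in 32 cells (19.5 from the product), *Meis1* in 39 cells (23.6) and *Mycn* in 44 cells (32.8). *Mef2c*, present in 363 of the 435 cells, met every other member about as often as the product, with ratios from 0.974 to 1.05. A gene found in most cells cannot rise far above the product, so these ratios do not show whether *Mef2c* goes with the others.

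*Hoxa9* and *Mycn* met in 81 cells (74.8 from the product), a ratio of 1.08. *Mllt3* had 35 cells in cluster 5, of which 10 had *Hlf* (4.91 from the product, a ratio of 2.04) and 5 had *Mecom* (1.29, a ratio of 3.88). With all UMIs these ratios were 1.18 (17 cells) and 1.66 (7 cells), so neither excess was kept at that size. Over all Cpa3-low cells of Em-Ex *Mllt3* met *Mycn* in 19 cells, below the 30.2 of the product, whereas within cluster 5 it met it in 19 cells against 18.8. The low overlap over all Cpa3-low cells was thus not seen within cluster 5.

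**Figure D5:**
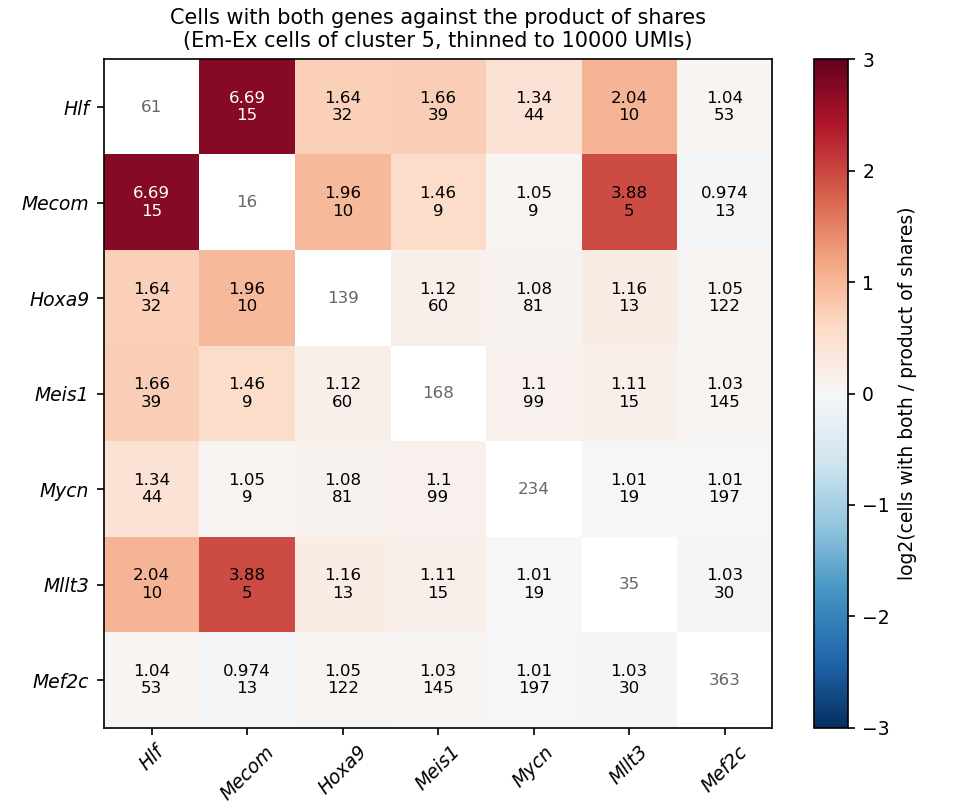
Cells with UMIs of both genes, divided by the number that the product of their shares gives (upper value and color, log2 scale), with the number of cells below it, in 435 Em-Ex cells of cluster 5 thinned to 10000 UMIs. The diagonal gives the cells with each gene. *Hlf* with *Mecom* (15 cells, 6.69 times the product) stands out. The row of *Mef2c* is near 1 and, as the gene was found in most cells, could not rise far above it.

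Cells of cluster 5 with *Hlf* differed from those without it in other genes. The split was made on UMIs left after thinning to 10000 and the levels use all UMIs, so that some cells counted as without the gene hold it at full depth, where 96 of the 465 Em-Ex cells had *Hlf*, 205 *Hoxa9* and 310 *Mycn*. In the 61 cells with *Hlf*, of lower median depth (18290 against 21495.5 UMIs), *Procr*, which encodes the stem cell surface receptor EPCR, was 8.71 times higher (17.1 against 1.97 CPM, 4.29 to 18.0), on 20 and 16 UMIs. *Ly6a*, which encodes Sca-1, was 1.75 times higher (1.61 to 1.9). The neutrophil granule genes were lower, with *Mpo* at 0.352 (0.31 to 0.398) and *Elane* at 0.145 (0.0747 to 0.256) of the level without *Hlf*. *S100a8* had 1 UMI in the cells with *Hlf* and 328 UMIs in the others. The cell cycle genes were mixed, with *Aspm* (1.9, 1.16 to 3.01) and *Top2a* (1.17, 1.05 to 1.3) higher, *Rrm2* (0.772, 0.618 to 0.956) and *Pcna* (0.776, 0.617 to 0.966) lower, and *Mki67* (1.09, 0.854 to 1.37), *Mcm5* and *Ccne2* with intervals that include no difference.

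The splits by *Mycn* and by *Hoxa9* differed from this in some genes. The 234 cells with *Mycn* had *Elane* at 0.0161 (0.00769 to 0.0299) and *Mpo* at 0.412 (0.389 to 0.437) of the level in the 201 cells without it. *Procr* was 2.79 times higher (1.27 to 6.75) and *Ly6a* 1.08 times (1.01 to 1.15). The 139 cells with *Hoxa9* had *Elane* at 0.269 (0.205 to 0.348), *Mpo* at 0.684 (0.643 to 0.728), *Procr* at 4.25 (2.04 to 9.32) and *Ly6a* at 1.28 (1.2 to 1.37) of the level in the others. Of the other granule genes, *Prtn3* at 0.932 (0.887 to 0.979) and *Ctsg* at 0.985 (0.788 to 1.23), were close to equal in the cells with and without *Hoxa9*, while in the split by *Mycn* they stood at 0.413 (0.393 to 0.434) and 0.162 (0.12 to 0.215). In each split *S100a8* was at most 0.0212 of the other cells. The splits overlap and are descriptions of the same cells.

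Among relatives of the members the HOXA genes were read beside *Hoxa9*. Of the 10 genes of that list 5 were in the table and 2 at 10 CPM, *Hoxa5* (41.6 and 0.521 CPM, ratio 79.7, 48.6 to 141) and *Hoxa7* (38.2 and 0.489 CPM, ratio 78.1, 46.8 to 141) in Em-Ex Cpa3-low and Cpa3-high cells. Both reached 10 CPM only in the Cpa3-low cells and so had to differ. *Hoxa2*, *Hoxa10* and *Hoxa3* were below 10 CPM, and all 5 were listed at 0 in YS-Ex. The counts in the other families are read beside the 17.6% and 10.5% of all genes that were at least 2-fold higher in Cpa3-low and Cpa3-high cells. Of the MYC family 3 of 5 genes at 10 CPM were at least 2-fold higher in Cpa3-low cells, with *Myc* at 3.82 times (3.47 to 4.21), and 0 were lower. Among these 3, *Mxi1* (12.6 against 5.05 CPM) and *Zbtb17* (10.9 against 5.31 CPM) reached 10 CPM only in the Cpa3-low cells. *Max*, the partner of MYC proteins, had a ratio of 1.42 (1.32 to 1.53).

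The relatives and partners of *Meis1* differed in direction, with 1 at least 2-fold higher and 2 at least 2-fold lower in Cpa3-low cells of Em-Ex. Among the 5 genes of this list at 10 CPM, *Pbx2*, whose product binds DNA with MEIS and HOX proteins (1.82, 1.58 to 2.08), and *Pknox1* (1.27, 1.05 to 1.53) were within 2-fold. *Meis2* and *Meis3*, named here after their values were seen, were lower. *Meis2* was at 5.06 CPM in Cpa3-low and 63.4 CPM in Cpa3-high cells of Em-Ex, and at 13.8 and 145 CPM in YS-Ex, so that the paralog of *Meis1* was higher in mast cells. The *Mef2c* relatives *Mef2a* (1.72, 1.44 to 2.04) and *Mef2d* (1.78, 1.5 to 2.11) were within 2-fold, and of the relatives of *Hlf*, *Dbp* was at 0.897 (0.759 to 1.06), *Tef* at 0.529 (0.415 to 0.667) and *Nfil3* at 0.466 (0.387 to 0.557).

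Of 13 genes on a list of MLL and elongation partners, read beside *Mllt3*, 10 reached 10 CPM in Em-Ex. *Mllt11* and *Aff3* were at least 2-fold higher in Cpa3-low cells, *Aff4* was at least 2-fold lower, and 7 were within 2-fold, among them *Psip1* (1.96, 1.83 to 2.1) and *Cdk9* (1.44, 1.32 to 1.57). *Mllt11* and *Aff3* reached 10 CPM only in the Cpa3-low cells, and the counts are near the shares over all genes. In Cpa3-high cells *Kmt2a*, *Aff1* and *Aff4* were at least 2-fold higher in YS-Ex than in Em-Ex, as *Mllt3* was, among 10 genes at that level, beside 10.4% of all genes. The list of other stem cell transcription factors had 21 genes in the table, and 16 of them reached 10 CPM in Em-Ex, of which 6 were at least 2-fold higher in Cpa3-low cells and 3 lower. *Lmo2*, an adaptor of blood transcription complexes, was 42.0 times higher (34.4 to 51.7) and *Hmga2*, a chromatin protein of fetal stem cells, 10.9 times (10.1 to 11.7). *Lmo2*, *Bcl11a* and *Gfi1b*, which are among the 6, reached 10 CPM only in the Cpa3-low cells and so had to differ. *Lyl1* had a ratio of 1.25 (1.18 to 1.33), and the immediate early gene *Egr1* was lower (0.466, 0.444 to 0.489). The median log2 ratio was 0.70 for this list, 0.32 for the partners of HOX proteins, 0.63 for the MLL list and 0.91 for the MYC family. It was 4.76 for the 2 HOXA genes, 0.75 for the 2 MEF2 relatives and -0.83 for the 3 relatives of *Hlf*. Over all 7406 genes it was 0.28.

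By the pattern over the 14 clusters (Pearson correlation of log2(CPM + 1), a description of clusters that share 2 libraries), *Gria2* (r = 0.99) and *Jakmip1* (0.99) were among the 3 genes most like *Hoxa9*. *Hlf* was closest to *Jakmip1* (0.99) and to *Hoxa9* itself (0.98), and *Mycn* to *Hsd17b1* (0.94), *Jakmip1* (0.94) and *Gm5111* (0.94). *Mecom* had *Afap1l1* (0.98), *Mn1* (0.98) and *Gimap4* (0.97), and *Mef2c* had *Lbp* (0.96), *Tmem176b* (0.96) and *Ppic* (0.96). The neighbours of the persisting genes were *Adamts10* (0.94), *Celf2* (0.93) and *1110059E24Rik* (0.91) for *Meis1* and *Tbc1d24* (0.91), *Lrba* (0.89) and *Spopl* (0.87) for *Mllt3*. For *Hlf*, *Mecom* and *Hoxa9* the zeros of clusters made up mainly of YS-Ex cells are listed zeros, which enter these values.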

How the data were processed

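Single-cell RNA-seq was made from 2 droplet libraries of sorted cells, 1 for each explant type. The deposited values are raw UMI counts per gene and barcode, which the authors made by counting reads on mm10 (Cell Ranger 2.0.1 after bcl2fastq 2.19.1.403, per the submitters' processing notes). The table held 11691 genes and 3504 Em-Ex and 3037 YS-Ex barcodes, and all columns were mapped to a library (0 were not). In each library a gene was above 0 only with UMIs in at least 30 barcodes, and 241 genes in Em-Ex and 725 in YS-Ex were listed at 0. Cells with 1000 to 5000 genes and at most 5% mitochondrial UMIs were kept, the limits of the study's methods, which left 3071 and 2087. The study's single-cell figures give 3504 and 3037 cells, so its set was larger. The loss was greater in YS-Ex. The kept cells held 42752370 UMIs in Em-Ex (4120 to 38114 per cell) and 27031627 in YS-Ex (3302 to 34107). No doublet caller was run and no doublets were removed.

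Levels are summed UMIs per 1000000 (CPM) with exact Poisson intervals. Ratios have exact conditional binomial intervals and shares of cells have Clopper-Pearson intervals, all at 95%. No test was made, since each explant type had 1 library and cells are not replicates. Genes at 10 CPM or more in either class were called at 2-fold. Cells were thinned to 3000 or 10000 UMIs for shares and co-detection of the 21 pairs of genes. Clusters came from the Leiden method (resolution 1, 20 neighbours, 50 principal components of 2000 variable genes, without the 7 members and *Cpa3*) and are not those of the study. Related genes were named by their level in Em-Ex Cpa3-low cells (at most 4 per list), and genes of like pattern by Pearson correlation over clusters of at least 20 cells, with up to 3 for each member. A few genes that these rules name are not reported here. The members and lists were chosen with earlier results of these data known. Gene positions came from GENCODE M21 and start sites from RefSeq (GRCm38.p6, the same build as mm10). The *Cpa3* limit, the cell filters, shared barcodes, pooling, thinning, the filter on low levels and the clustering were varied. The steps were tested on simulated data. Python 3.11.15 was used with numpy 2.4.6, scipy 1.17.1, scikit-learn 1.9.0, leidenalg 0.10.2, python-igraph 0.11.9 and matplotlib 3.10.9.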

Additional observations from a re-analysis of the deposited data

Results flagged for a closer look

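For *Meis1* and *Mllt3* the ratio of Cpa3-low to Cpa3-high cells pointed in opposite directions in the 2 explants, which is why both are listed here. The log2 ratio of *Meis1* was 0.76 (0.60 to 0.92) in Em-Ex and -0.028 (-0.63 to 0.51) in YS-Ex. That of *Mllt3* was 0.40 (0.13 to 0.66) in Em-Ex and -0.26 (-0.91 to 0.33) in YS-Ex. Both YS-Ex intervals include 0 and rest on 28 and 24 UMIs in 69 Cpa3-low cells, and the difference between the explants was not tested. The YS-Ex value of *Meis1* was 0.12 with a *Cpa3* limit of 10, and that of *Mllt3* was 0.08 with a limit of 40 and 0.11 as a mean over cells, so that neither direction in YS-Ex was kept under every alternative. The Em-Ex value of *Mllt3* turned to -0.38 (-0.74 to -0.04) with the Cpa3-low cells of cluster 5 alone, which has the sign of the YS-Ex value.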

How the results depend on the processing

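The log2 ratio of Cpa3-low to Cpa3-high cells in Em-Ex was, as reported, 8.03 for *Hlf*, 4.27 for *Mecom*, 6.12 for *Hoxa9*, 0.76 for *Meis1*, 4.94 for *Mycn*, 0.40 for *Mllt3* and 5.82 for *Mef2c*. With the Cpa3-low cells of cluster 5 alone *Mllt3* turned to -0.38 and *Meis1* moved to 0.93, and without the Cpa3-high cells of clusters 5 and 14 the values were 7.77 for *Hoxa9*, 5.45 for *Mycn* and 6.74 for *Mef2c*. These 2 alternatives were chosen after seeing the data. As a mean over cells *Mef2c* had 6.16. The share of Em-Ex Cpa3-low cells with 2 or more members, 70.8%, was 78.9% with a *Cpa3* limit of 10, 54.2% with a limit of 40 and 62.6% with cells thinned to 10000 UMIs. In YS-Ex *Mef2c* had 7.54 in place of 8.51 with a limit of 40. Counting genes from 1 CPM on, 21.3% of genes were at least 2-fold higher in Cpa3-low cells of Em-Ex in place of 17.6%. The cluster with most *Hlf* UMIs held 55.6% of them at Leiden resolution 2 and 57.0% when each library was clustered alone, in place of 97.1%. The other 68 values of the main comparisons and 56 others moved by less than their 95% interval. The cause of the shifts was not tested. No paired analysis was possible because each explant type had 1 library. The YS-Ex Cpa3-low class is limited by its 69 cells, and genes listed at 0 in YS-Ex could not be compared.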
